A study of Sus scrofa with 16 samples.

Results

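The genes described here encode 10 matricellular and adhesive glycoproteins of the cardiac extracellular matrix: periostin (POSTN), fibronectin (FN1), tenascin C (TNC), thrombospondins (THBS1, THBS2, THBS3 and THBS4), SPARC, osteopontin (SPP1) and CTHRC1. They were picked out by their symbols. All 10 were found among the 22629 genes listed, 15095 of which carry a symbol.

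Matricellular proteins are secreted into the matrix but do not carry its mechanical load; they bind collagen, growth factors and cell surface receptors, chiefly integrins, and alter how cells attach, migrate and assemble fibres. The healthy adult heart makes little of most of them. After infarction they are made again by activated fibroblasts, macrophages and vascular cells, and they mark the tissue in which a collagen scar is laid down.

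The pigs were White Yorkshire-Landrace farm animals operated on at 1 month of age. In ischemia/reperfusion (IR) pigs the left anterior descending artery was occluded for 1 h below its second diagonal branch and then reopened, and sham pigs had the operation and the suture without the occlusion, so all of them carried the thoracotomy. The methods name heparin, given before the occlusion, for the IR pigs, so that heparin and occlusion cannot be told apart. Left ventricular tissue was taken 4 weeks later from a scar zone, below the suture, and from the adjacent border zone, and polyadenylated RNA was sequenced. Each of the 4 groups (IR scar, IR border, sham scar and sham border) held 4 pigs, 2 female and 2 male, and each of the 8 pigs gave 1 library of each zone, 16 libraries in all. The IR pigs were numbered 2 and 14 (female) and 9 and 11 (male), and the sham pigs 4 and 5 (female) and 12 and 13 (male). The scar zone of an IR pig held scar together with surviving muscle, and in a sham pig the name gives only the place of the piece. Bulk RNA does not separate fewer cells of a type from less RNA per cell, and these cannot be told apart in any result below.

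Estimated counts summed to between 15427663 and 49045206 per library. The 4 libraries of the male IR pigs were the deepest, at 33521418 or more against 27088652 or less in the others. Levels are given as counts scaled to a common library size (CPM) with correction for library composition. The lowest count of a member in any library was 25, for CTHRC1. Heart muscle markers were high in all libraries, with summed levels of 7 cardiomyocyte genes between 56472 and 92825 CPM. The scar zone libraries of pigs 9 and 11 stood apart from the rest for the genes described here, and the main results are given with and without them.

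Levels between genes were compared per length, in TPM (transcripts scaled for length and depth), over the 8 sham libraries of 4 pigs. SPARC, a collagen-binding protein that takes part in fibril assembly, was by far the most abundant, at 892 ± 93.8 TPM (SD, n = 8), and ranked 79 among all genes. THBS4 (37.8 ± 15.5 TPM), FN1 (36.8 ± 9.91 TPM), THBS1 (36.7 ± 13 TPM) and POSTN (36.5 ± 11.2 TPM) followed, with overlapping ranges among these neighbours. THBS2 was at 9.14 ± 1.60 TPM, and its highest sham value of 11 TPM lay below the lowest POSTN value of 21.1 TPM. SPP1 (4.66 ± 2.5 TPM), CTHRC1 (2.92 ± 1.61 TPM), THBS3 (1.81 ± 0.43 TPM) and TNC (1.38 ± 0.61 TPM) were lowest, and each overlapped its neighbour in this order. Summed over the 10 genes, the level was 6826 TPM in the scar zone of pig 9 and 4479 TPM in that of pig 11, against 846 to 1324 TPM in the other 14 libraries. SPARC made up 69.5% of the sum in the scar zone of pig 9 and 77.5% to 89.2% in the others.

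The first comparison asks how IR changed these genes in the tissue below the occlusion. In the scar zone the fitted level was higher in IR pigs for all 10 genes, by log2 differences of 0.44 (THBS1) to 3.48 (TNC), but no gene passed edgeR's quasi-likelihood test after Benjamini-Hochberg adjustment over all genes. In pigs 9 and 11, both male, every one of the 10 was above all sham libraries, and in pigs 2 and 14, both female, most lay in or near the sham range. The plot of CPM by library shows this split gene by gene.

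**Figure D1:**
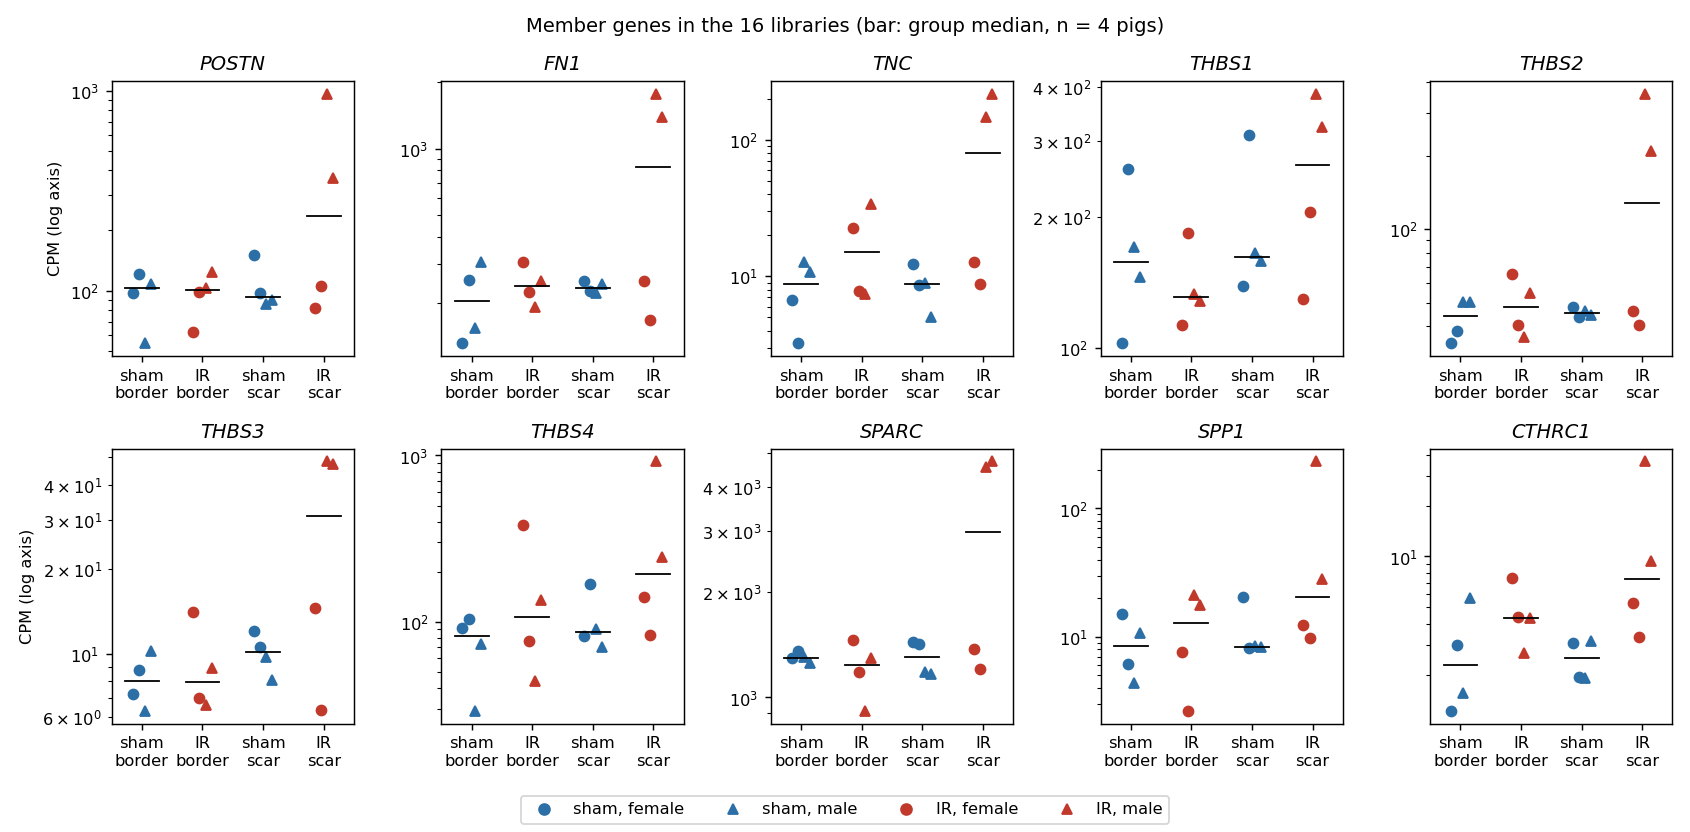
Each panel plots the level of 1 gene in CPM (log axis) in the 16 libraries, by group, with females as circles, males as triangles, sham in blue, IR in red and the group median as a bar. In the IR scar group the triangles (pigs 9 and 11) lie above every sham scar library for all 10 genes, and the circles (pigs 2 and 14) do not.

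Among the adhesive and fibre-organizing proteins, FN1, on which cells pull to assemble new matrix, was at 1774 CPM in pig 9 and 1394 CPM in pig 11. It was at 251 CPM in pig 2 and 168 CPM in pig 14, against 224 to 253 CPM in the 4 sham scar zones (253, 228, 224 and 244 CPM in pigs 4, 5, 12 and 13). The sham values were tight, and the 2 female IR pigs lay inside and below them. The fitted log2 difference was 1.92 ± 0.66 (SE, n = 4 against 4, edgeR adjusted p = 0.438). POSTN, an integrin ligand that promotes collagen cross-linking and is a classic marker of activated cardiac fibroblasts, was at 969, 366, 81.7 and 105 CPM in pigs 9, 11, 2 and 14. Its sham values were 151, 97.2, 85.4 and 89.4 CPM in the order above, so that pig 2 fell below the sham range and pig 14 inside it. The log2 difference was 1.85 ± 0.70 (edgeR adjusted p = 0.438). TNC, which loosens cell adhesion and is made where tissue is being remodelled, was at 148, 220, 12.7 and 8.83 CPM in pigs 9, 11, 2 and 14. Sham levels of TNC were low, at 12.4, 8.67, 8.89 and 4.99 CPM. Its log2 difference of 3.48 ± 0.95 was the largest of the 10 (edgeR adjusted p = 0.438), and pig 2 stood just above the highest sham value.

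The thrombospondins fall into a trimeric pair (THBS1 and THBS2), which bind CD47 and CD36 and restrain vessel growth, and a pentameric pair (THBS3 and THBS4), to which cartilage oligomeric matrix protein (COMP) also belongs. THBS2 was at 360, 209, 46.0 and 40.6 CPM in pigs 9, 11, 2 and 14, against 47.7, 43.6, 46.1 and 44.4 CPM in sham scar zones. Of the female IR pigs, pig 2 was inside this narrow sham range and pig 14 below it, and the log2 difference was 1.86 ± 0.62 (edgeR adjusted p = 0.438). THBS1, also an activator of latent TGF-β, was at 386, 324, 130 and 205 CPM in the same order. Sham pig 5 had 309 CPM, close to pig 11, and the other sham scar zones had 139, 165 and 159 CPM. THBS1 had the smallest difference of the 10, with a log2 value of 0.44 ± 0.36 (edgeR adjusted p = 0.609). The summed level of 6 immediate-early genes, which respond rapidly to many stimuli, was 504 CPM in that library of sham pig 5 and 897 CPM in the scar zone of pig 11, and 56.7 to 197 CPM in the other scar zones, pig 9 included. Their part in the THBS1 values was not tested. THBS3 was at 48.3, 47.5, 14.6 and 6.32 CPM in pigs 9, 11, 2 and 14, against 8.08 to 12.1 CPM in sham, with a log2 difference of 1.54 ± 0.54 (edgeR adjusted p = 0.438). Pig 14 had less THBS3 than any sham scar zone. THBS4, which is made in heart under load and in tendon, was at 921, 246, 141 and 83.2 CPM, against 82.2, 168, 90.3 and 70.8 CPM in sham pigs 4, 5, 12 and 13. Its log2 difference was 1.76 ± 0.68 (edgeR adjusted p = 0.438), and the female values lay inside the sham range.

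SPARC was at 4569 CPM in pig 9 and 4744 CPM in pig 11, so that the 2 male pigs were close together, as for THBS3. It was at 1378 and 1211 CPM in pigs 2 and 14, both inside the sham range of 1170 to 1444 CPM, and the log2 difference was 1.19 ± 0.44 (edgeR adjusted p = 0.438). SPP1, a phosphoprotein made by macrophages and fibroblasts in injured tissue, reached 232 CPM in pig 9 but 28.3 CPM in pig 11, 12.4 CPM in pig 2 and 9.78 CPM in pig 14. Sham pig 4 had 20.4 CPM and the other 3 sham scar zones 8.15 to 8.49 CPM, so that pig 11 exceeded the sham range by far less than pig 9 did. The log2 difference of SPP1 was 2.65 ± 0.97 (edgeR adjusted p = 0.438), and 0.57 without pig 9. CTHRC1, a secreted protein of activated fibroblasts that limits collagen deposition, was at 36.5, 9.41, 5.28 and 3.33 CPM in pigs 9, 11, 2 and 14. Its sham values were 3.09, 1.95, 1.92 and 3.17 CPM. In CPM it was the 1 gene of the 10 whose IR and sham scar zones did not overlap, with 3.33 against 3.17 CPM. For comparison, 2.04% of all genes had every IR scar library above every sham scar library on that scale. In TPM the CTHRC1 groups overlapped, with pig 14 at 3.44 TPM and sham pig 4 at 3.55 TPM. The log2 difference of CTHRC1 was 2.45 ± 0.69 (edgeR adjusted p = 0.438).

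**Figure D2:**
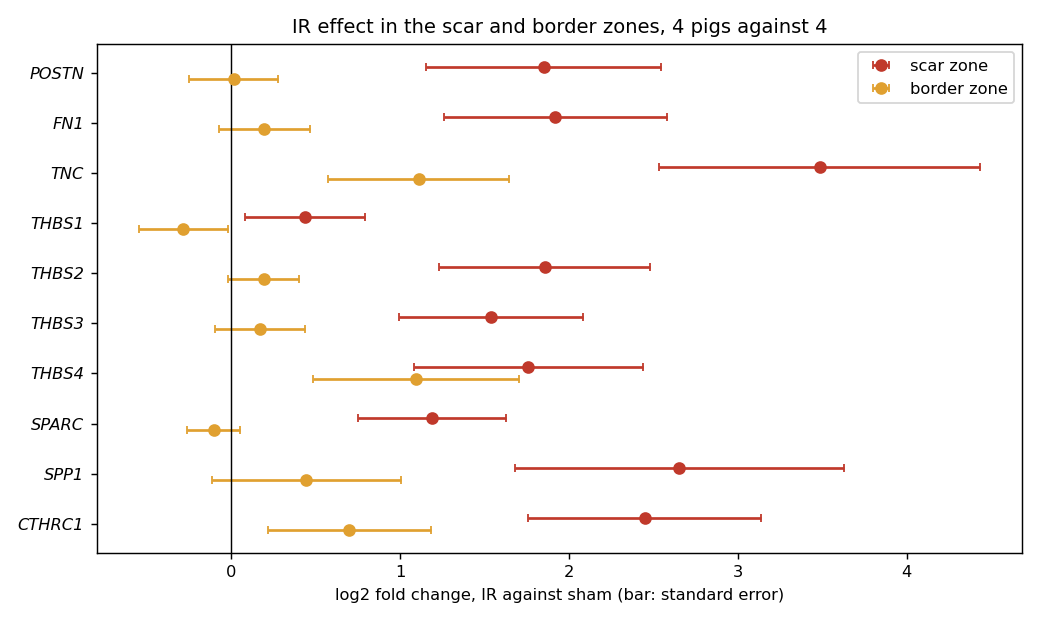
The points are fitted log2 fold changes of IR against sham (x axis) for the 10 genes in the scar zone (red) and the border zone (yellow), with standard errors as bars, 4 pigs against 4. Scar zone values run from 0.44 (THBS1) to 3.48 (TNC) and border zone values from -0.28 (THBS1) to 1.11 (TNC).

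At an adjusted p of 0.05 and a fold of 2, edgeR called 0 of the 10 in the scar zone, where 0% of the 14023 genes tested were called. At an unadjusted p of 0.05 and the same fold, 9 of 10 were higher (all but THBS1), against 2.74% of all genes. The median log2 difference of the 10 was 1.85, beside 0.03 over all genes. DESeq2 called CTHRC1 (adjusted p = 0.0208) among 52 genes in all, and limma on log2(TPM + 1) called none of the 10 and 3 genes in all. Over all genes, 1572 had an unadjusted p of at most 0.05 in edgeR. Without pig 9, 2 of 10 (TNC at 3.19 and CTHRC1 at 1.25) were past the unadjusted threshold, where 1.73% of all genes were, with a median log2 difference of 1.00. The others were then 1.33 (FN1), 1.17 (THBS3), 1.11 (THBS2), 0.89 (SPARC), 0.78 (POSTN), 0.59 (THBS4), 0.57 (SPP1) and 0.17 (THBS1). Without pig 11, 7 of 10 were past it (1.51% of all genes), and SPARC (0.87), THBS3 (1.21) and THBS1 (0.32) were not. Without sham pig 12 or sham pig 13 the count was 5 of 10 (2.27% and 2.68% of all genes). Without both male IR pigs the count was 0 of 10 (0.782% of all genes), the median was -0.01 and 4 of 10 differences were positive. With sex as a covariate 3 of 10 were past it (1.94% of all genes).

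Relative to the sham scar zone median, pig 9 was 2.38-fold (THBS1) to 27.7-fold (SPP1) higher, with a median of 9.17 over the 10 genes, and pig 11 was 2.00-fold (THBS1) to 25.1-fold (TNC) higher, with a median of 3.83. Pig 9 was the highest scar zone library for 8 of the genes and pig 11 for TNC and SPARC. In pig 2 the ratios ran from 0.802 to 2.09, with 3 genes above the sham range, 2 below and 5 within. In pig 14 they ran from 0.622 to 1.32, with 1 above (CTHRC1), 3 below and 6 within. All 10 genes had both male IR libraries above the other 6 scar zone libraries, a pattern shown by 17.7% of all genes.

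**Figure D3:**
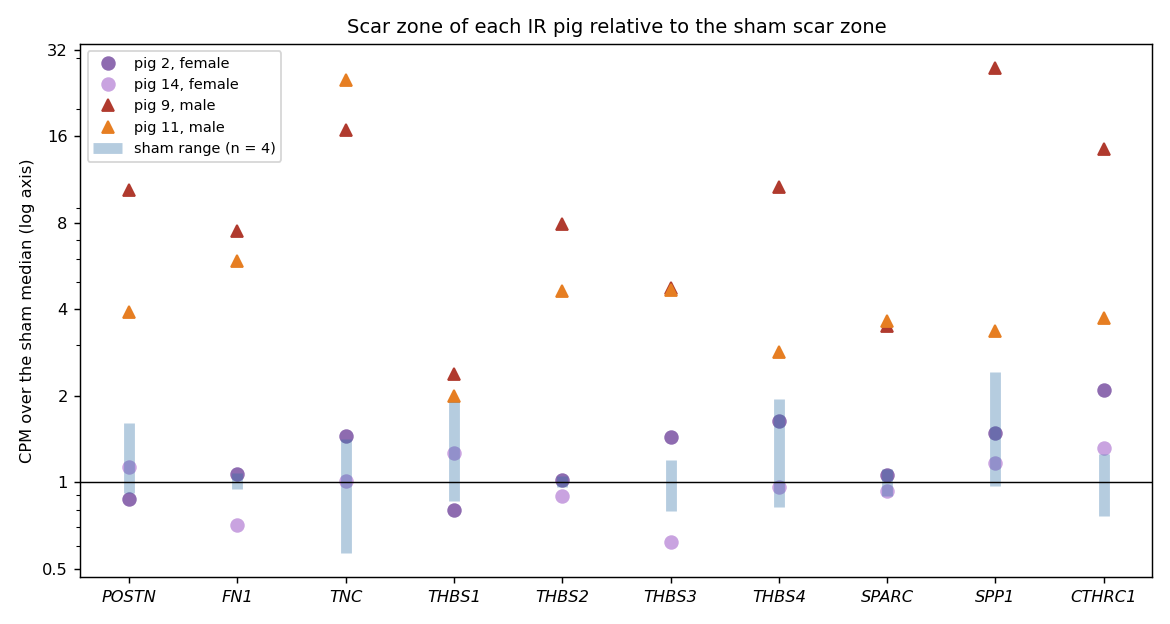
The y axis (log) gives the CPM of each IR pig's scar zone divided by the median of the 4 sham scar zones, for the 10 genes, with the sham range as a blue band. Pigs 9 and 11 (triangles) lie above the band for all 10 genes, from 2.00-fold to 27.7-fold, and pigs 2 and 14 (circles) between 0.622 and 2.09.

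Several summed markers of other cells, though not all, were also higher in the scar zones of pigs 9 and 11 than in sham. The summed level of 6 fibroblast markers (DCN, LUM, PDGFRA, DPT, TCF21 and GSN) was 3557 CPM in pig 9 and 3458 CPM in pig 11, 1890 CPM in pig 2 and 1391 CPM in pig 14, against 1702 to 1773 CPM in sham scar zones, and was 2.06-fold and 2.00-fold the sham median in the male pair. GSN and DCN carried most of that sum, averaging 1100 and 934 CPM in the IR scar zones. The fitted log2 differences of the 6 ran from 0.26 ± 0.38 (PDGFRA) to 0.71 ± 0.36 (DPT). At the unadjusted threshold 0 of 6 were higher, against 2.74% of all genes. The 6 leucocyte markers summed to 284 and 297 CPM in pigs 9 and 11, 149 and 188 CPM in pigs 2 and 14, and 118 to 225 CPM in sham. Tendon and cartilage markers (FMOD, ACAN, TNMD and COL2A1) summed to 687 and 398 CPM in pigs 9 and 11, 73.2 and 37.6 CPM in pigs 2 and 14, and 24.2 to 34.5 CPM in sham. FMOD, a collagen-binding proteoglycan, made up nearly all of these sums (628 and 397 CPM in pigs 9 and 11, 23.9 to 33.7 CPM in sham). ACAN was at 53.3 CPM in pig 9 and at most 1.38 CPM in the other scar zones, and TNMD was listed at 0 in 12 of the 16 libraries and COL2A1 in 6. Mesothelial markers (KRT8, KRT18 and WT1, 3 of 5 listed) summed to 74.0 and 72.6 CPM in pigs 9 and 11, 25.7 and 16.8 CPM in pigs 2 and 14, and 14.4 to 32.2 CPM in sham. KRT8 carried most of that sum, at 61.9 and 57.4 CPM in pigs 9 and 11 and 6.27 to 24.4 CPM in sham, while the mesothelial factor WT1 was at 10.4 and 12.7 CPM against 4.98 to 7.86 CPM in sham. The 5 endothelial markers were below the sham range of 761 to 871 CPM in pigs 9, 11 and 2 (618, 678 and 680 CPM) and above it in pig 14 (911 CPM). This depended on the scale. In TPM, pig 9 (283 TPM) was above the sham range of 243 to 274 TPM and pig 14 (269 TPM) inside it. Pigs 11 and 2 (242 and 203 TPM) were below it. The 6 mural cell markers were at 1099 CPM in pig 9 and 1272 CPM in pig 11, against 833 to 1210 CPM in sham. In TPM they summed to 803 TPM in pig 9 and 774 TPM in pig 11, above the sham range of 363 to 544 TPM. The 4 adipocyte markers summed to at most 2.47 CPM in any scar zone. Cardiomyocyte markers in pig 9 were at 0.795 of the sham median in CPM, below the sham range, and in pig 11 at 0.985. MYH7 carried most of the CPM sum, averaging 41780 CPM in the IR and 41815 CPM in the sham scar zones. In TPM, pigs 9, 11 and 14 (43697, 42449 and 45902 TPM) were below the sham range of 45928 to 55226 TPM. Pig 2 (51834 TPM) was inside it. The part of the cell mixture in the differences of the 10 genes was not tested.

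The second comparison asks whether the adjacent border zone differed as well. There the median log2 difference of the 10 was 0.20, beside 0.00 over all genes, and edgeR called 0 of 10, as it called 0% of 13728 genes. At the unadjusted p and the fold of 2, 0 of 10 were higher, against 0.517% of all genes, while 519 genes had an unadjusted p of at most 0.05, DESeq2 called 2 genes and limma called 0, with no member among them. The groups overlapped for all 10, and 0.854% of all genes had every IR border library above every sham one. TNC, at 7.36, 33.8, 22.5 and 7.83 CPM in IR pigs 9, 11, 2 and 14 and 6.66, 3.22, 12.7 and 10.8 CPM in sham pigs 4, 5, 12 and 13, had a log2 difference of 1.11 ± 0.54 (edgeR adjusted p = 0.988). That difference ran from 0.59 to 1.38 with 1 pig left out. THBS4 was at 44.2, 135, 380 and 76.7 CPM in the IR pigs, against 91.2, 104, 28.9 and 73.6 CPM in sham, with a log2 difference of 1.10 ± 0.61 (edgeR adjusted p = 0.988). The 380 CPM of pig 2 was above that pig's own scar zone value of 141 CPM and was the second highest THBS4 level of the 16 libraries. Without pig 2 the border zone difference of THBS4 was 0.19.

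The female pig 2 had 6 of the 10 genes above the sham border range and pig 11 had 5, while pig 9, the highest in the scar zone for most of them, had 1 above and 1 below, and pig 14 had 0 above and 2 below. For FN1 the border zones read 192, 253, 308 and 225 CPM in IR pigs 9, 11, 2 and 14, all within the sham range of 132 to 309 CPM. SPARC was at 913, 1302, 1461 and 1183 CPM against 1254 to 1362 CPM in sham, so that pigs 9 and 14 were below the sham range and pig 2 above it. The remaining log2 differences were between -0.28 (THBS1) and 0.70 (CTHRC1).

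The third question is whether the IR effect differed between zones. The difference of the 2 effects was positive for all 10 genes, with a median of 1.70 on the log2 scale beside 0.01 over all genes, and ranged from 0.68 ± 0.99 (THBS4) to 2.39 ± 1.15 (TNC). None was called (edgeR adjusted p = 1.00 for all 10), as 0% of 14278 genes were, with 317 genes at an unadjusted p of at most 0.05 and none called by DESeq2 or limma. At the unadjusted threshold POSTN, FN1, THBS2 and SPARC were higher, 4 of 10 against 1.32% of all genes. With the pig as a replicate block, which uses each animal's own border zone, 1 of 10 (SPP1, 1.36) was past it (1.39% of all genes) and the edgeR adjusted p ran from 0.702 to 0.953. Without pig 9 the count was 0 of 10, without pig 11, sham pig 5 or sham pig 13 it was 1, without sham pig 12 it was 2, and without pig 2 or pig 14 it was 7, in fits where 0.559% (without pig 9) to 2.42% (without pig 2) of all genes were past it. Without both male IR pigs the median was -0.29 and 0 of 10 were past it (0.437% of all genes).

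Within the IR pigs, scar zone levels were higher than border zone levels for all 10 genes in the fit, with a median log2 difference of 1.72 beside 0.01 over all genes. None was called (edgeR adjusted p = 0.989), as 0% of 14170 genes were. Over all genes 617 had an unadjusted p of at most 0.05, DESeq2 called 4 and limma on log2(TPM + 1) called 2, with no member among them. At the unadjusted threshold 7 of 10 were higher, against 1.69% of all genes, and 0 were without pig 9, 2 without pig 11 and 0 without both of them, where 0.488%, 0.709% and 0.389% of all genes were. With the replicate block 2 of 10 were past it (POSTN at 1.30 and SPP1 at 1.68), beside 1.50% of all genes, with edgeR adjusted p between 0.431 and 0.704. In the sham pigs the median difference was 0.15 beside -0.01 over all genes, 0 of 10 were called and 0 of 10 were past the unadjusted threshold, where the shares of 13803 genes were 0% and 0.0290%. Over all genes of that comparison 113 had an unadjusted p of at most 0.05, and DESeq2 and limma on log2(TPM + 1) called 1 gene each.

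Pig by pig, scar minus border log2 CPM in pig 9 was positive for 10 of 10 genes, from 1.53 (THBS1) to 4.38 (THBS4), and in pig 11 for 10 of 10, from 0.67 (SPP1) to 2.70 (TNC). In pig 2 it was positive for 4 of 10, with a median of -0.19, and in pig 14 for 7 of 10, with a median of 0.07. The sham pigs 4, 5, 12 and 13 had 9, 7, 6 and 1 positive values, with medians of 0.56, 0.23, 0.41 and -0.31. SPP1 in pig 14 was the largest scar excess in a female IR pig, at 1.86, from a border zone level of 2.63 CPM. THBS4 in pig 2 was the largest border excess, at -1.43.

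**Figure D4:**
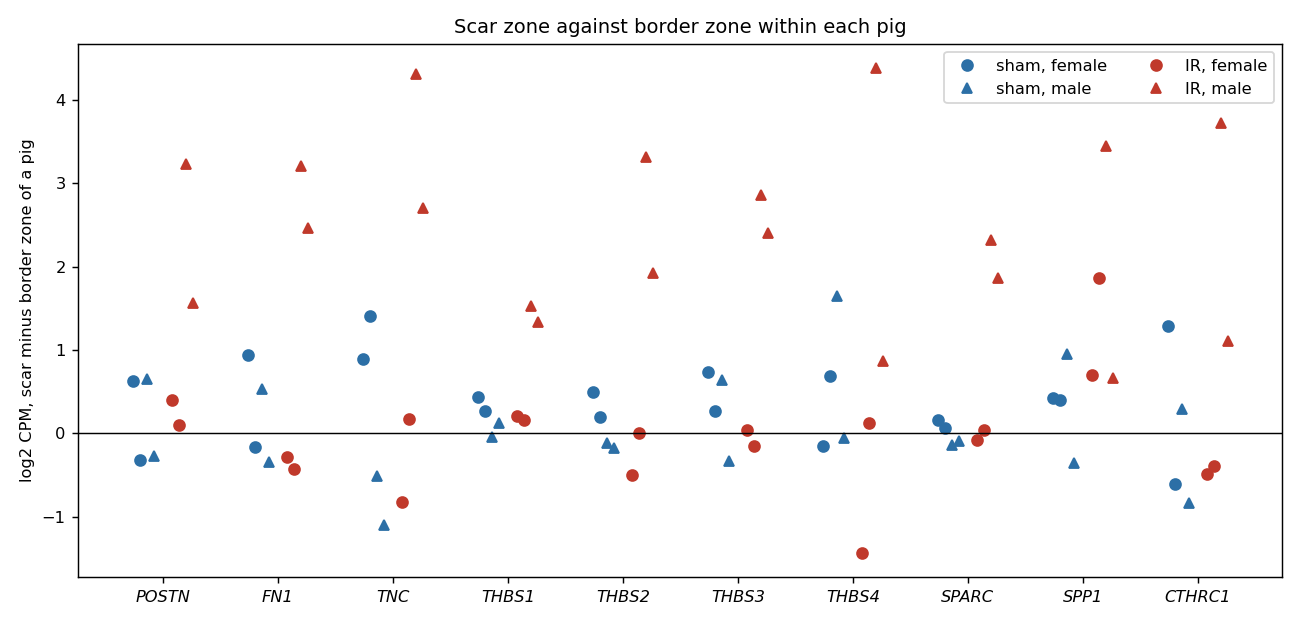
The y axis gives log2 CPM in the scar zone minus that in the border zone of the same pig, for each of the 10 genes, with sham pigs in blue, IR pigs in red, females as circles and males as triangles. The male IR pigs are above 0 for all 10 genes (0.67 to 4.38), and the other 6 pigs lie on both sides of 0.

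Because each surgery group held 2 pigs of each sex, the scar zone effect of IR could be set side by side in males and females. Among males, IR minus sham mean log2 CPM was positive for 10 of 10 genes, from 1.13 (THBS1) to 4.74 (TNC), with a median of 2.67. Among females it was positive for 2 of 10 (CTHRC1 at 0.75 and TNC at 0.03), and ran down to -0.38 (POSTN), with a median of -0.19. The difference of the effects, tested as an interaction term, was called by edgeR for 6 of 10 genes, where 1.50% of 14023 genes were called in either direction. At the unadjusted threshold 10 of 10 had the larger effect in males, against 6.08% of all genes, and the median difference was 2.85 beside -0.00 over all genes.

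The male excess of the IR effect was 2.14 ± 0.19 for SPARC (log2, SE, edgeR adjusted p = 0.0103), which had the smallest error of the 10. It was 2.96 ± 0.31 for FN1 (adjusted p = 0.0128) and 4.69 ± 0.48 for TNC (adjusted p = 0.0128). For THBS2 it was 2.74 ± 0.34 (adjusted p = 0.0183), for POSTN 3.35 ± 0.59 (adjusted p = 0.0406) and for THBS3 2.54 ± 0.47 (adjusted p = 0.0468). SPP1 (4.32 ± 1.20, adjusted p = 0.111), THBS4 (3.02 ± 0.84, adjusted p = 0.111), THBS1 (1.56 ± 0.50, adjusted p = 0.156) and CTHRC1 (2.41 ± 0.88, adjusted p = 0.201) did not pass. With 1 pig left out, the male excess ran from 2.13 to 5.15 for SPP1 and from 1.78 to 3.68 for THBS4. It then ran from 0.87 to 2.02 for THBS1 and from 1.13 to 3.07 for CTHRC1. Each arm of this test is 2 pigs, so the sex of the IR pigs cannot be told apart from anything else that pigs 9 and 11 had in common, including their deeper libraries and their fibroblast marker level. Leaving out sham pig 12 or sham pig 13 brought the count to 0 of 10, with the lowest adjusted p at 0.0587 and 0.0580, and leaving out 1 of the other pigs gave 3 to 7 of 10. DESeq2 called 9 of 10 (all but THBS4), where it called 5.07% of 14023 genes, and limma on log2(TPM + 1) called 7 of 10, where it called 3.56% of 12173 genes.

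Related genes were read in the same scar zone fit, from lists of matricellular relatives, receptors, matrix partners and enzymes, and upstream regulators. No gene of these 4 lists was called by edgeR in either IR comparison. The counts here are therefore at the unadjusted threshold, with 2.74% of all genes as the background. Counts from the sex comparison are adjusted calls, beside 1.50% of all genes. They come from the fit with all pigs, 2 per surgery and sex, and are not given with a pig left out. Of 27 relatives tested, 8 were higher and 0 lower, with a median log2 difference of 0.66. Without pig 9 the count was 4, without pig 11 it was 6, and without both it was 1 (COMP), with a median of 0.09. Without 1 of the other pigs it was 6 (sham 4 or 12) to 12 (sham 13 or IR pig 14). COMP, the fifth thrombospondin, averaged 26.8 ± 49.4 CPM in the IR and 0.48 ± 0.56 CPM in the sham scar zones (SD, n = 4 each), a log2 difference of 5.76 ± 1.65. Pig 9 had 101 CPM and pigs 11, 2 and 14 had 1.19, 3.33 and 1.70 CPM, and the difference was 2.07 without pig 9. Tenascin N (TNN) was at 48.5 CPM in pig 9 and at 1.43, 1.72 and 2.04 CPM in pigs 11, 2 and 14, against 1.14 ± 0.31 CPM in sham, with a difference of 3.57 ± 1.18, which was 0.58 without pig 9. WISP1, a CCN family protein, differed by 2.59 ± 0.74, AEBP1, a collagen-binding protein, by 2.42 ± 0.63, and CILP, a matrix protein of cartilage and fibrotic heart, by 2.28 ± 0.78. Without both male pigs these 3 were at 0.42, 0.55 and 0.49. The basement membrane-associated FBLN1 averaged 309 ± 233 CPM after IR, with 116 ± 9.66 CPM in sham (1.41 ± 0.46), and the SPARC relatives SMOC2 (1.29 ± 0.56) and SMOC1 (1.09 ± 0.45) made up the rest. With 1 pig left out, FBLN1 ran from 0.82 to 1.68, SMOC2 from 0.88 to 1.58 and SMOC1 from 0.40 to 1.32. The SPARC relative SPARCL1, the most abundant of the list, averaged 499 ± 58.9 CPM after IR, with 657 ± 49.0 CPM in sham (-0.39 ± 0.13). FSTL1 (0.65 ± 0.31) and the elastic fibre protein FBLN5 (-0.09 ± 0.14) did not reach a fold of 2. In the border zone CILP alone of this list was past the threshold (1.66 ± 0.59), where 0.517% of all genes were higher. In the comparison of the sexes 4 of 27 relatives were called (FSTL1, EFEMP2, AEBP1 and TGFBI), where 1.50% of all genes were.

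Of 24 receptors of these glycoproteins, 0 were past the threshold in the scar zone, and the median log2 difference was 0.24. The count was also 0 without pig 9, without pig 11 and without both, 3 without pig 2 or pig 14, and 1 (ITGB7) without sham pig 4. ITGB1, the common integrin β chain, averaged 501 ± 52.0 CPM after IR, with 433 ± 43.9 CPM in sham (0.21 ± 0.13). CALR, through which THBS1 signals at the cell surface, differed by 0.21 ± 0.15, and ITGA5, the fibronectin receptor chain, by -0.10 ± 0.19. In the comparison of the sexes 3 of 24 receptors were called, beside 1.50% of all genes: ITGB3 (2.39 ± 0.34, edgeR adjusted p = 0.0243), the syndecan SDC1 (3.24 ± 0.52, adjusted p = 0.0353) and LRP1, which clears thrombospondins from the cell surface (1.37 ± 0.24, adjusted p = 0.0403).

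Of 21 matrix partners and enzymes, 6 were higher in the scar zone and 0 lower, with a median log2 difference of 0.65. Without pig 9 the count was 3 (COL12A1, COL1A1 and LOX), without pig 11 it was 3 (COL12A1, MMP9 and COL1A1), and without both it was 0, with a median of -0.07. It was also 3 without sham pig 4, 12 or 13 and 4 without sham pig 5, and it was 8 without pig 2 and 9 without pig 14. The collagen I chains COL1A1 (4379 ± 4000 CPM in IR against 1128 ± 238 CPM in sham, 1.96 ± 0.64) and COL1A2 (1.59 ± 0.61), the fibril-associated COL12A1 (1.86 ± 0.55) and COL14A1 (1.20 ± 0.47), the cross-linking enzyme LOX (1.76 ± 0.62) and the gelatinase MMP9 (3.84 ± 1.56) made up the 6. With 1 pig left out, COL1A1 ran from 1.25 to 2.29, COL1A2 from 0.83 to 1.90 and COL12A1 from 1.10 to 2.16. COL14A1 then ran from 0.66 to 1.47 and LOX from 1.17 to 2.08. MMP9 was at 22.6 CPM in pig 9 and at 0.27, 0.52 and 0 CPM in pigs 11, 2 and 14, against 0.42 ± 0.22 CPM in sham, and its difference was -0.62 without pig 9. COL3A1, the most abundant of the list, differed by 1.13 ± 0.55, the collagen chaperone SERPINH1 by 0.17 ± 0.15 and the transglutaminase TGM2 by 0.12 ± 0.24. In the comparison of the sexes 10 of the 21 were called, beside 1.50% of all genes: COL1A1, COL1A2, COL3A1, COL5A1, COL5A2, COL14A1, FBN1, LOX, MMP2 and MMP14.

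Of 22 upstream regulators, 5 were higher and 0 lower in the scar zone, with a median log2 difference of 0.26. Without pig 9 EGR1 alone was past it, without pig 11 RUNX1 alone, and without both none of 22, with a median of 0.07. Without sham pig 12 TGFB3 alone was past it, and without 1 of the other pigs the count was 4 to 7. The 5 were the early response factor EGR1 (1.75 ± 0.72), RUNX1 (1.43 ± 0.53), the mesenchymal factor PRRX1 (1.30 ± 0.47), RUNX2 (1.18 ± 0.52, from 0.43 ± 0.23 CPM in sham) and the ligand TGFB3 (1.07 ± 0.39). With 1 pig left out, EGR1 ran from 0.56 (without pig 11) to 2.26 and RUNX1 from 0.69 (without pig 9) to 1.72. PRRX1 then ran from 0.90 to 1.57, RUNX2 from 0.84 to 1.52 and TGFB3 from 0.68 to 1.30. TGFBR2, a receptor of TGF-β, differed by 0.02 ± 0.17, angiotensinogen (AGT) by 0.49 ± 0.68 and the actin-responsive factor SRF by -0.26 ± 0.23. TGFB3 (1.84 ± 0.28, edgeR adjusted p = 0.0305) and PRRX1 (2.12 ± 0.26, adjusted p = 0.0167) were called in the comparison of the sexes, 2 of 22 beside 1.50% of all genes.

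**Figure D5:**
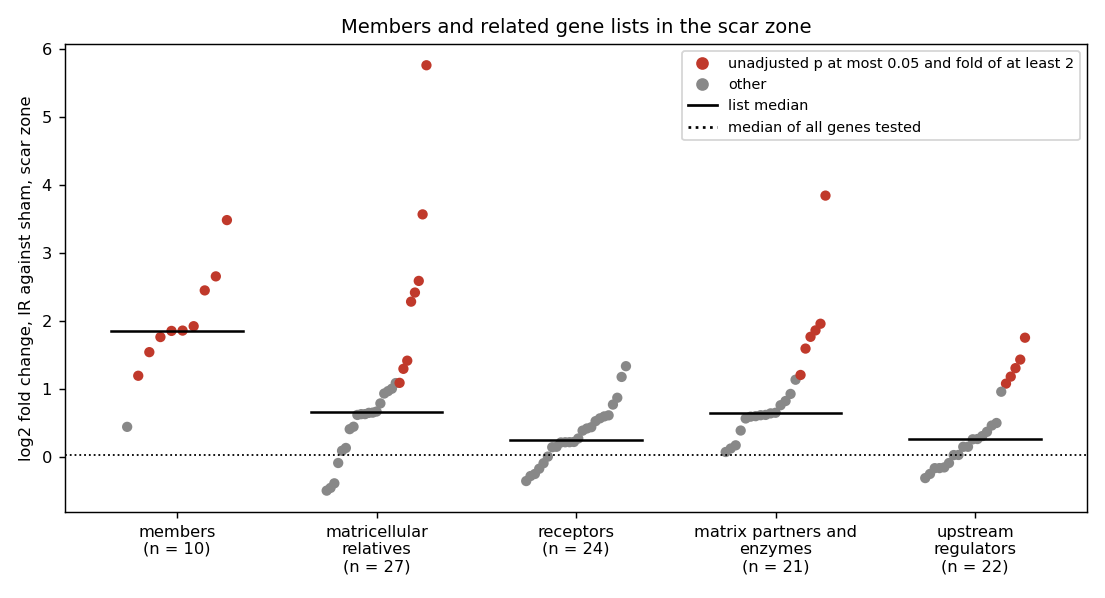
Each point is 1 gene, placed by its log2 fold change of IR against sham in the scar zone (y axis), for the 10 genes of the report and 4 related lists, with the list median as a bar, the median of all genes (0.03) as a dotted line and genes past the unadjusted threshold in red. The medians are 1.85, 0.66, 0.24, 0.65 and 0.26, from left to right.

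The genes with the most similar profile were found by the root mean square difference of centred log2 CPM over the 16 libraries, among 12145 symbols; these profiles share libraries and are given as a description. FN1 and THBS2 were each other's closest gene, at 0.28 log2 units, and THBS3 (0.30) was next to FN1. CCDC80, a matrix protein, was among the 3 closest of FN1, THBS2, THBS3 and THBS4. SPARC had the closest match of all, FKBP10 (0.14), a chaperone of collagen folding, followed by RARRES2 and CERCAM (0.20 each). THBS3 was near COL1A1 (0.28), THBS2 near COL16A1 (0.29), THBS4 near CILP (0.49) and COL8A1 (0.51), and CTHRC1 near LTBP2 (0.52), CLEC11A (0.53) and FN1 (0.54). POSTN was nearest to C3 (0.41), ADAM12 and LGALS3 (0.42 each). The closest genes of TNC (ROR2, 0.64, FAM198A, 0.65, and PTN, 0.70) and of SPP1 (TRIB3, 0.72, LYZ, 0.73, and POSTN, 0.74) were more distant, and the root mean square deviations of TNC (1.58) and SPP1 (1.38) were also the largest of the 10. THBS1 was nearest to NEO1 (0.30), PER2 and MEST (0.32 each), and none of its 3 was among those of another member.

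POSTN, THBS3, THBS4 and SPARC each overlap an annotated non-coding RNA gene in the Sscrofa11.1 annotation. The library kit keeps strand, but the strand setting of the quantification was not given in the sources used here, so a part of their counts from such a transcript was not tested.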

How the data were processed

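The authors trimmed the reads (75 bp paired, stranded polyadenylated RNA) with Trimmomatic 0.33, aligned them with HISAT2 2.0.5 and quantified transcripts with kallisto 0.43.1, as the submitters' processing notes name them; the genome build is not given in the sources used here. The authors deposited estimated counts per gene, not scaled for depth, and TPM, which also divides them by transcript length and by depth.

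Estimated counts were rounded and tested with edgeR 4.0.16 (quasi-likelihood, TMM scaling, filterByExpr with a minimum count of 10 and total of 15) under R 4.3.3, and p-values were adjusted by Benjamini-Hochberg across every gene in the fit. Calls needed an adjusted p of at most 0.05 and a fold of at least 2. Each of the 6 comparisons used the libraries of its own groups; the sex comparison was an interaction of surgery and sex. CPM used TMM over 16 libraries, and log2 CPM a prior count of 2. Alternatives were DESeq2 1.42.0, limma 3.58.1 on log2(TPM + 1) and log2(TPM + 0.1), upper-quartile scaling, no filter, sex as a covariate, 1 estimated factor of unwanted variation, all samples in 1 fit, the pig as a replicate block and each pig left out. The fits were run on simulated data in which each library was drawn independently. Those data held no correlation within a pig, so they do not test how the fits handle it. Scar and border samples of a number came from 1 animal, and their deviations from group means correlated at 0.354 to 0.692 over 14278 genes, so they are paired. The libraries correlated at 0.974 to 0.995 in 120 pairs.

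The members and lists were chosen with earlier results of these data known. Named were all members and, per list, up to 6 genes past the unadjusted threshold by size (8 in the relatives, the last 2 of them named after their values were seen) and the 3 most abundant others; list genes called in the sex comparison, markers and genes past a threshold only with a pig left out were named after their values were seen. In the comparisons within a zone the p-values measure the spread between pigs. In the comparisons between zones the main fits took both libraries of a pig as independent, and only the replicate block used the pairing.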

Additional observations from a re-analysis of the deposited data

Results flagged for a closer look

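SPP1 was at 20.4 CPM in the scar zone of sham pig 4, far above the other 3 sham scar zones. It was the 1 value to stand apart among 40 groups of 4 libraries tested by the gap to the nearest value on the log2 CPM scale (10 genes in 4 groups), and chance marks about 1 group in 20. On the CPM scale 3 groups had such a value, which were SPP1 in sham pig 4, SPP1 in the scar zone of IR pig 9 (232 CPM) and THBS1 in the scar zone of sham pig 5 (309 CPM).

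The scar zone effect of IR differed between males and females by the interaction test for 6 genes. The male excess on the log2 scale was 3.35 for POSTN, 2.96 for FN1, 4.69 for TNC, 2.74 for THBS2, 2.54 for THBS3 and 2.14 for SPARC. Without sham pig 12 or sham pig 13 the count was 0 of 10. Each arm of the test is 2 pigs, and sex and the individual pigs cannot be told apart.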

How the results depend on the processing

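Of the 10 genes, DESeq2 called 1 in the scar zone (0 in edgeR), and at the unadjusted threshold (9 in edgeR) the count was 5 with 1 factor of unwanted variation, 3 with sex as a covariate and 2, 2 and 1 with limma on log2(TPM + 1), log2(TPM + 0.1) and log2(TPM + 1) without a filter. Leaving out 1 pig gave 2 to 9. The border zone count was 1 with sex as a covariate and 0 to 2 with 1 pig left out. The count for the difference between zones (4 in edgeR) was 7 with DESeq2, 6 without the filter, 2 with the factor, 1 with sex, 1 with the replicate block, 0 in each limma fit and 0 to 7 with 1 pig left out. For scar against border in IR pigs (7) it was 4 with the factor, 4 with sex, 2 with the replicate block, 2, 1 and 0 in the limma fits and 0 to 9 with 1 pig left out. The replicate block changed no other call. The sex comparison (6 called) gave 9 with DESeq2 (711 genes called in all, 210 in edgeR), 4 with the factor (93 in all), 3 with limma without a filter (107 in all) and 0 to 7 with 1 pig left out (1 to 160 in all).

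Leaving out both male IR pigs, an alternative chosen after seeing the data, gave 0 past the unadjusted threshold in the scar zone and in both zone comparisons. The scar zone difference turned negative for POSTN (-0.17), FN1 (-0.17), THBS1 (-0.20), THBS2 (-0.064), SPARC (-0.0056) and SPP1 (-0.017). So did the difference between zones for FN1 (-0.49), TNC (-0.55), THBS1 (-0.0031), THBS2 (-0.36), THBS3 (-0.32), THBS4 (-1.48), SPARC (-0.020) and CTHRC1 (-0.26), and scar against border in IR pigs for FN1 (-0.34), TNC (-0.49), THBS2 (-0.29), THBS3 (-0.0090), THBS4 (-1.02), SPARC (-0.024) and CTHRC1 (-0.45).

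In the border zone POSTN (0.02) was -0.0057 with upper-quartile scaling and -0.011 with the factor. With 1 pig left out, border zone values ran from -0.18 to 0.18 for POSTN, -0.12 to 0.31 for THBS3 and -0.21 to 0.017 for SPARC. THBS4 ran from -0.82 to 1.84 in the difference between zones and from -0.33 to 2.29 for scar against border in IR pigs, lowest without pig 9. TPM values moved the median of all genes by 0.15 in the scar zone, 0.12 for the difference between zones, 0.13 for scar against border in IR pigs and 0.38 in the sex comparison (log2(TPM + 1)), and the signs of the 10 genes did not change there. The cause was not tested for any of these. The 4 pigs of a group limit the precision, and the fits with 2 pigs an arm limit it further.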
